A study of Mus musculus with 15 samples.

Results

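The unfolded protein response of the endoplasmic reticulum (ER) was described in mouse hepatocytes through 10 of the 56953 genes in the deposited tables, picked by name and matched by Ensembl ID. Of these, 9 code for proteins of the ER lumen or their partners, namely Hspa5, Hsp90b1, Calr, Pdia4, Pdia6, Dnajb9, Sdf2l1, Creld2 and Manf. The other, Xbp1, codes for a transcription factor and not for a chaperone. Messenger RNA was sequenced in 15 libraries of primary mouse hepatocytes from 4 groups. These were 4 libraries from transgenic ΔEGFR mice given carbon tetrachloride (CCl4), 4 from ΔEGFR mice given mineral oil, 3 from wild-type (WT) mice given CCl4 and 4 from WT mice given mineral oil, the oil in which CCl4 is usually dissolved. ΔEGFR is known as a truncated epidermal growth factor receptor without its kinase domain, which blocks the normal receptor. The promoter of the transgene, the strain, the age, the dose and the duration of treatment are not given in the sources used here, and no label says whether a library came from 1 animal or from several. The labels number no replicates, so the replicate numbers used here only name libraries, in the order of their records, and pair none of them across groups. The p-values therefore measure the spread between these libraries.

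The ER folds the proteins that a cell secretes, and the hepatocyte, which makes most plasma proteins, carries a large one. When unfolded proteins gather there, sensors in its membrane (the kinases Ern1 and Eif2ak3 and the transcription factor Atf6) are released from Hspa5 and switch on the genes of chaperones, of disulfide enzymes and of degradation. Ern1 cuts an intron out of the Xbp1 transcript, and the spliced form codes for the active factor. CCl4 is turned into a reactive radical by cytochrome P450 enzymes of the hepatocyte, whose smooth ER is among the first structures to be damaged.

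Several of the genes share a promoter element. Atf6 and the spliced Xbp1 protein bind the ER stress response element, which has CCAAT, then any 9 bases, then CCACG. In the 250 bases upstream of each start (RefSeq promoters, build GRCm38.p6, searched on both strands), 5 of the 9 members with a window held that element, against 37 of 32851 promoters of all genes (0.113%). Hsp90b1 held it at 2 places. The members were picked by name as genes of this response, so their difference from all promoters carries no test. All promoters were counted per promoter (32851 for 27025 genes) and include the members' own windows. The matches are shown because they are the letters these genes have in common, each read 5′ to 3′ on the strand that carries the element, with both conserved ends in capitals.
Hspa5 (chr2:34772025-34772043, plus strand): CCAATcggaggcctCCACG
Calr (chr8:84847075-84847093, plus strand): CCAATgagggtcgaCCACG
Hsp90b1, upstream copy (chr10:86705638-86705656, minus strand): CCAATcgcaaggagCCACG
Hsp90b1, copy nearer the start (chr10:86705533-86705551, plus strand): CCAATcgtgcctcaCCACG
Pdia6 (chr12:17266491-17266509, plus strand): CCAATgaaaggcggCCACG
Creld2 (chr15:88819520-88819538, minus strand): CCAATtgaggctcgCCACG

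Either end alone was common in promoters of every kind. CCACG alone stood in 7 of the 9 member windows and in 28.3% of all promoters, and CCAAT alone in 8 of 9 and in 33.8%, counts that include the ends of the full element. The core TGACGTGG, which the spliced Xbp1 protein binds without CCAAT, was in 0 of the 9 windows and in 0.563% of promoters. The windows of Dnajb9, Pdia4 and Sdf2l1 held no full element, and that of Xbp1 held none of the 4 motifs. Manf had no entry. Pearson's r with Hspa5 (of log2 CPM, described below) was 0.95 (Creld2), 0.84 (Hsp90b1), 0.54 (Calr) and 0.52 (Pdia6) for members with the full element. For members without it, r was 0.80 (Pdia4), 0.77 (Dnajb9), 0.75 (Sdf2l1) and -0.25 (Xbp1). Whether the element bears on these likenesses was not tested. The 250 bases before the start are given for Hspa5 and Creld2, whose transcripts followed each other closely, and for Xbp1, which did not follow them, with the ends of a full element in capitals.
Hspa5 (chr2:34771840-34772089, plus strand): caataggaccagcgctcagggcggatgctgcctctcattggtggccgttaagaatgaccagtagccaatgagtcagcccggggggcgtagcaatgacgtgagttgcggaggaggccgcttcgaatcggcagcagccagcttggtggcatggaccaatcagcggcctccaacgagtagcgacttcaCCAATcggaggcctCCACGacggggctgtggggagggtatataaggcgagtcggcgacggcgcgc
Creld2 (chr15:88819396-88819645, plus strand): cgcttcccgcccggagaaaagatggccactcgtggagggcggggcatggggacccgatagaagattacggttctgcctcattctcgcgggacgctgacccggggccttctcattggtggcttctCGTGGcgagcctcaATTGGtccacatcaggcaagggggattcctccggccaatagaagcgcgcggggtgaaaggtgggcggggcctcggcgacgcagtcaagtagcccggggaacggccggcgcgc
Xbp1 (chr11:5520391-5520640, plus strand): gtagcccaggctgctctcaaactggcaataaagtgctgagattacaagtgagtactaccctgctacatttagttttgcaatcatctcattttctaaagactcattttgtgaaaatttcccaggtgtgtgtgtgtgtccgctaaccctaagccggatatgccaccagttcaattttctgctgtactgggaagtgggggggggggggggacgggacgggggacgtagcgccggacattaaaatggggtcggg

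All 10 genes were measured well in every library. Their lowest expected count, the number of reads that RSEM assigns to a gene, was 1835 (Creld2), in libraries of 51.7 M to 155 M reads assigned to genes. Levels are given in TPM (the usual unit of relative transcript abundance, corrected for transcript length), in which the members together made up 0.335% to 0.52% of the total in ΔEGFR CCl4, 0.223% to 0.581% in ΔEGFR mineral oil, 0.379% to 0.766% in WT CCl4 and 0.187% to 0.326% in WT mineral oil. By mean TPM over the 15 libraries the order was Hspa5 (998), Calr (930), Hsp90b1 (561), Manf (323), Pdia6 (301), Pdia4 (206), Xbp1 (185), Sdf2l1 (116), Creld2 (103) and Dnajb9 (52.1). Several neighbours in that order did not separate, since Hspa5 was above Calr in 7 of 15 libraries, Manf above Pdia6 in 7, Pdia4 above Xbp1 in 8, Xbp1 above Sdf2l1 in 9 and Sdf2l1 above Creld2 in 10. Calr was above Hsp90b1, and Hsp90b1 above Manf, in all 15.

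All 10 hepatocyte markers averaged at least 1 TPM in every group, with a summed level of 55886 to 105274 TPM in ΔEGFR CCl4 against 43949 to 110932 TPM in ΔEGFR mineral oil, and of 61581 to 101853 TPM in WT CCl4 against 59333 to 108345 TPM in WT mineral oil. With TMM factors 6 of the 10 were called lower over both genotypes, where 27.1% of all genes were called in either direction. Among them were Cps1 (-1.33 ± 0.20) and Hnf4a (-0.92 ± 0.19), and the median log2 fold change of the 10 was -0.84. That median was -0.40 with library totals, where 3 were called lower, and -0.18 on log2(TPM + 1), where 2 were. Markers of some other cells rose with CCl4. Summed over 10 macrophage markers, libraries held 2616 to 6394 TPM in ΔEGFR CCl4 against 23.6 to 1009 TPM in ΔEGFR mineral oil, and 1850 to 8226 TPM in WT CCl4 against 55.7 to 1390 TPM in WT mineral oil. Over both genotypes, 7 of the 10 macrophage markers passed the test as higher, as did 4 of 6 cholangiocyte markers tested and 3 of 10 stellate cell markers. The share of all genes called in either direction was 27.1%, and the stellate cell count was near it. Of 8 endothelial, 6 T and NK cell and 5 neutrophil markers, 0 were called, with medians of 0.36, -0.50 and -0.74. On log2(TPM + 1) those medians were 1.14, 0.62 and 1.62, and 3 endothelial markers were called higher. Cholangiocyte markers summed to 280 to 889 TPM in ΔEGFR CCl4 against 8.85 to 183 TPM in ΔEGFR mineral oil, and to 333 to 1089 TPM in WT CCl4 against 26.1 to 84.6 TPM in WT mineral oil. These sums rest on part of the list. Of its 7 markers, 2 averaged under 1 TPM in ΔEGFR CCl4, 4 in WT CCl4 (Krt7, Epcam, Cftr and Tspan8) and 5 in each mineral oil group (those 4 and Krt19). Only Spp1 and Sox9 were above that level in every group, and Spp1 had 2.80 ± 0.65 over both genotypes. Of the 6 tested, 1 was below 0 over both genotypes, Sox9 (-0.70 ± 0.64). Plasma and B cells are rich in ER, and their 9 markers summed to 182 to 501 TPM in ΔEGFR CCl4 against 19.6 to 238 TPM in ΔEGFR mineral oil, and to 203 to 667 TPM in WT CCl4 against 11.5 to 473 TPM in WT mineral oil. Of the 8 tested, 0 passed the test in either genotype or over both. All 8 were above 0 over both genotypes, with a median of 1.23. On log2(TPM + 1) 6 of the 8 were called higher over both genotypes, with a median of 1.27, where 38.1% of all genes were called higher. No marker on these lists was at 0 throughout a group. In bulk RNA, fewer cells of a type and less RNA per cell cannot be told apart.

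A pair of libraries stood apart in these genes. Replicate 1 of WT CCl4 was the highest of all 15 libraries for 7 of the 10 members. Replicate 3 of ΔEGFR mineral oil was among the highest pair for 6 of them, although it had received no CCl4. At the other end, replicate 1 of WT mineral oil was the lowest of the 15 for 7 members, and its 5 neutrophil markers summed to 5335 TPM, against 5.47 TPM in the lowest library of its group. The CCl4 fold changes of the members within each genotype are therefore given with and without the library of the first pair that enters them, a choice made after the values were seen. Replicate 1 of WT mineral oil stayed in all of these WT values. No fit left it out together with replicate 1 of WT CCl4, so the WT values without the latter still lean on this low library.

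Hspa5 (BiP, also Grp78) is the Hsp70 chaperone of the ER lumen and the usual gauge of its stress. It measured 1152, 937, 777 and 1393 TPM in ΔEGFR CCl4 libraries, against 427, 513, 1934 and 698 TPM in ΔEGFR mineral oil libraries. In WT it measured 2171, 977 and 1584 TPM with CCl4, against 592, 413, 735 and 671 TPM with mineral oil. In TPM the WT groups did not overlap, with CCl4 higher, whereas in ΔEGFR the highest value of all belonged to a mineral oil library. With the counts scaled by TMM factors, which assume that most genes do not change between libraries, the log2 fold change of CCl4 over mineral oil was -0.14 ± 0.38 (SE) in ΔEGFR and 0.91 ± 0.41 in WT, a fold of 0.909 and 1.89. Neither fold change passed edgeR's quasi-likelihood test at an adjusted p of 0.05 (adjusted p = 0.851 and 0.159). On those counts the WT groups overlapped, at 1151 to 2657 CPM (the count relative to the TMM-scaled library size) with CCl4 against 727 to 1186 CPM with mineral oil. Without replicate 3 of ΔEGFR mineral oil the ΔEGFR value was 0.32, and without replicate 1 of WT CCl4 the WT value was 0.58.

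Hsp90b1 (Grp94) is the Hsp90 of the ER and folds integrins and Toll-like receptors. Its levels were 586, 469, 526 and 882 TPM in ΔEGFR CCl4 libraries, against 376, 322, 807 and 413 TPM in ΔEGFR mineral oil libraries. WT libraries had 1204, 590 and 706 TPM with CCl4, against 295, 385, 449 and 408 TPM with mineral oil. Again the WT groups were separate in TPM and the ΔEGFR groups were not, while on TMM-scaled counts the groups overlapped in both genotypes. The log2 fold change was -0.10 ± 0.35 in ΔEGFR and 0.63 ± 0.38 in WT (edgeR adjusted p = 0.886 and 0.293), and the values were 0.08 in ΔEGFR without replicate 3 of mineral oil and 0.24 in WT without replicate 1 of CCl4.

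Calr, calreticulin, is the lectin that holds glycoproteins in the folding cycle and stores calcium. Libraries held 1219, 885, 945 and 1182 TPM in ΔEGFR CCl4, against 685, 705, 960 and 714 TPM in ΔEGFR mineral oil. With WT mice the values were 1624, 972 and 1172 TPM in CCl4, against 418, 780, 900 and 786 TPM in mineral oil. In TPM the separation in WT was narrow, and the ΔEGFR groups overlapped through replicate 3 of mineral oil. On TMM-scaled counts the groups overlapped in both genotypes. Calr had the smallest fold changes of the 10 genes, -0.08 ± 0.29 in ΔEGFR and 0.30 ± 0.32 in WT on the log2 scale (edgeR adjusted p = 0.886 and 0.566). Without the outlying library they were -0.09 in ΔEGFR and 0.08 in WT. That WT value includes replicate 1 of WT mineral oil, at 581 CPM against 1315, 1400 and 1091 CPM in replicates 2 to 4. Replicates 2 and 3 of WT CCl4 were at 1113 and 1065 CPM.

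Pdia4 (ERp72) and Pdia6 (P5) form and shuffle disulfide bonds, and Pdia6 also binds Ern1. Pdia4 was at 206, 165, 187 and 316 TPM in ΔEGFR CCl4 libraries, against 128, 129, 353 and 160 TPM in ΔEGFR mineral oil libraries. For WT, Pdia4 was at 503, 207 and 223 TPM with CCl4, against 61.1, 124, 159 and 166 TPM with mineral oil. Replicate 1 was far above the other 2 WT CCl4 libraries, and replicate 3 far above the other 3 of ΔEGFR mineral oil. The log2 fold change of Pdia4 was -0.26 ± 0.43 in ΔEGFR (edgeR adjusted p = 0.74), or 0.01 without that replicate 3, and 0.81 ± 0.46 in WT (adjusted p = 0.265), or 0.26 without that replicate 1. These WT values include replicate 1 of WT mineral oil, at 107 CPM against 253, 304 and 281 CPM in replicates 2 to 4.

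The levels of Pdia6 were 492, 334, 367 and 412 TPM in ΔEGFR CCl4 libraries, against 177, 246, 301 and 222 TPM in ΔEGFR mineral oil libraries. WT CCl4 libraries held 516, 322 and 339 TPM, against 98.4, 200, 237 and 257 TPM in WT mineral oil libraries. It was the only one of the 10 whose CCl4 libraries all lay above the mineral oil libraries in both genotypes on the TPM scale. On TMM-scaled counts its groups overlapped in both, at 317 to 541 CPM with CCl4 against 347 to 405 CPM in ΔEGFR. In WT they held 321 to 628 CPM with CCl4 against 145 to 389 CPM. The log2 fold changes were 0.25 ± 0.30 in ΔEGFR and 0.50 ± 0.32 in WT (edgeR adjusted p = 0.624 and 0.325), and 0.26 and 0.25 without the outlying library of each. The WT values include replicate 1 of WT mineral oil, at 145 CPM against 353, 389 and 371 CPM in replicates 2 to 4.

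Dnajb9 (ERdj4) is a J-domain partner of Hspa5 that returns Ern1 to its resting state. Values were 55.0, 38.4, 34.8 and 60.0 TPM in ΔEGFR CCl4, against 22.1, 30.4, 99.9 and 63.9 TPM in ΔEGFR mineral oil. WT CCl4 libraries had 92.5, 46.0 and 79.4 TPM, against 45.1, 28.6, 29.6 and 55.6 TPM in WT mineral oil. The groups overlapped in both genotypes. On the log2 scale the fold change was -0.64 ± 0.38 in ΔEGFR and 0.39 ± 0.40 in WT (edgeR adjusted p = 0.306 and 0.559), and -0.35 and 0.16 without the outlying library of each.

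Sdf2l1 joins Hspa5 and another J-domain protein in a complex that keeps clients from aggregating. ΔEGFR CCl4 libraries contained 178, 113, 119 and 166 TPM, against 66.4, 49.5, 214 and 56.0 TPM in ΔEGFR mineral oil libraries. WT libraries contained 270, 135 and 155 TPM with CCl4, against 20, 73.0, 69.9 and 61.3 TPM with mineral oil. In TPM, every WT CCl4 library was well above every WT mineral oil library, and 3 of the 4 ΔEGFR mineral oil libraries were below all ΔEGFR CCl4 libraries. On TMM-scaled counts the WT groups were still separate, by a narrower gap. The log2 fold changes were 0.13 ± 0.48 in ΔEGFR, or 0.62 without replicate 3 of mineral oil, and 1.23 ± 0.52 in WT, or 0.86 without replicate 1 of CCl4. With all libraries the edgeR adjusted p was 0.889 in ΔEGFR and 0.135 in WT.

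Creld2, an ER protein with EGF-like domains that is made and secreted under stress, spread the most within a group. It was at 116, 61.5, 59.2 and 168 TPM in ΔEGFR CCl4 libraries, against 41.1, 34.5, 320 and 63.9 TPM in ΔEGFR mineral oil libraries. In WT it was at 311, 94.8 and 104 TPM with CCl4, against 27.2, 37.4, 56.4 and 53.4 TPM with mineral oil. A single library in each of those groups, replicate 3 of ΔEGFR mineral oil and replicate 1 of WT CCl4, stood several times above its fellows. The log2 fold change in ΔEGFR was -0.51 ± 0.65, and 0.48 without its outlying library. In WT it was 1.51 ± 0.70, and 0.70 without its own; no value passed the test (edgeR adjusted p = 0.66 in ΔEGFR and 0.174 in WT with all libraries).

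Manf, a small ER protein that binds Hspa5 and is released when calcium leaves the ER, behaved likewise. It measured 406, 212, 224 and 502 TPM in ΔEGFR CCl4, against 172, 169, 638 and 235 TPM in ΔEGFR mineral oil. The WT values were 775, 320 and 461 TPM with CCl4, against 102, 149, 254 and 221 TPM with mineral oil. In TPM the WT groups did not overlap and the ΔEGFR groups did, while on TMM-scaled counts the groups overlapped in both genotypes. Its log2 fold change was -0.23 ± 0.46 in ΔEGFR and 1.04 ± 0.49 in WT (edgeR adjusted p = 0.782 and 0.181), with 0.18 in ΔEGFR once replicate 3 of mineral oil was left out and 0.61 in WT once replicate 1 of CCl4 was.

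Xbp1 went the other way. Its levels were 158, 175, 110 and 118 TPM in ΔEGFR CCl4 libraries, against 133, 271, 178 and 158 TPM in ΔEGFR mineral oil libraries. WT libraries held 196, 123 and 196 TPM with CCl4, against 208, 189, 372 and 193 TPM with mineral oil. On this scale the groups overlapped in both genotypes. As CPM, the count relative to the TMM-scaled library size, it measured 151, 140, 115 and 131 in ΔEGFR CCl4, against 267, 339, 191 and 242 in ΔEGFR mineral oil, and 209, 128 and 162 in WT CCl4, against 269, 289, 540 and 246 in WT mineral oil. There every CCl4 library was below every mineral oil library of its genotype.

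Xbp1 fell in WT, by 1.01 ± 0.28 on the log2 scale, to a fold of 0.495 (edgeR adjusted p = 0.0352). In ΔEGFR its log2 fold change was -0.95 ± 0.26 (adjusted p = 0.0568), past the threshold without replicate 3 of ΔEGFR mineral oil (-1.07, adjusted p = 0.0415). Over the mean of both genotypes it fell by 0.98 ± 0.19, to a fold of 0.506 (edgeR adjusted p = 0.00311). Without both of the outlying libraries it still fell in WT (-1.13, adjusted p = 0.0455) and over both genotypes (-1.06, adjusted p = 0.00441). The WT call was lost without replicate 3 of WT mineral oil (-0.70, adjusted p = 0.0905), and without replicate 2 of WT mineral oil, replicate 2 or 3 of WT CCl4 or replicate 4 of ΔEGFR CCl4 (-1.09 to -0.77, adjusted p = 0.056 to 0.161). In all, Xbp1 was called in WT under 16 of 27 alternatives. With a score of the other-cell markers as a covariate, the change was -0.74 ± 0.30 in WT (edgeR adjusted p = 0.164) and -0.74 ± 0.22 over both genotypes (adjusted p = 0.0571). The fall of Xbp1 was of the size of that of the hepatocyte markers (median -0.84), whose part in it was not tested. Gene totals do not tell the spliced transcript from the unspliced one.

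**Figure D1:**
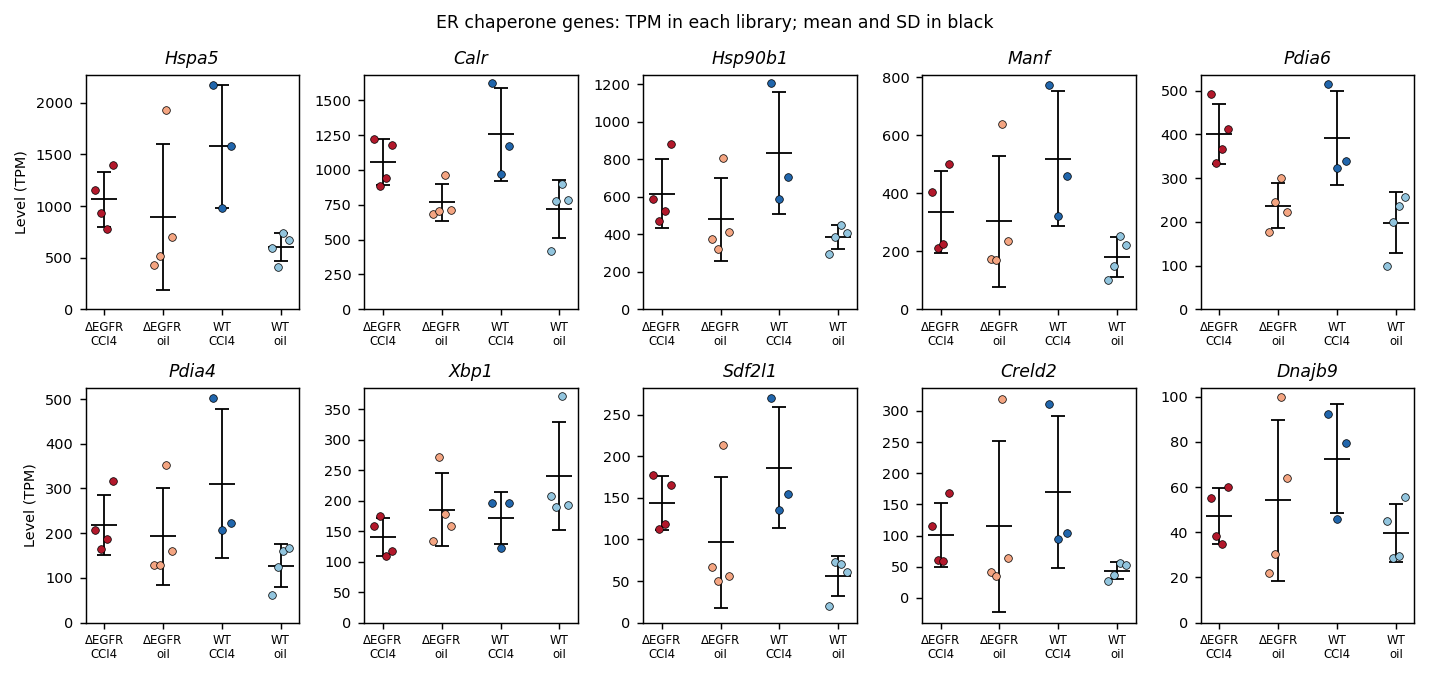
Level in TPM (vertical axes, linear) of each of the 10 genes in the 15 libraries, by group from left to right ΔEGFR CCl4, ΔEGFR mineral oil, WT CCl4 and WT mineral oil; dots are libraries, the black bar is the mean and the whiskers are 1 SD. Hspa5 and Creld2 each have 1 ΔEGFR mineral oil library (1934 and 320 TPM) far above its group, and the WT CCl4 libraries lie above the WT mineral oil libraries in all panels but those of Xbp1 and Dnajb9.

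Across the set, the test called 0 of 10 members in ΔEGFR, where 4.15% of the 17975 genes tested were called in either direction. It called 1 of 10 in WT, Xbp1, where 12.5% of genes were called. Over both genotypes it again called Xbp1 alone, where 27.1% of genes were called. The median log2 fold change of the 10 was -0.18 in ΔEGFR, 0.72 in WT and 0.32 over both genotypes, beside -0.02, -0.03 and -0.02 for all genes. Without replicate 1 of WT CCl4 the WT median of the members was 0.26.

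On the TPM scale, all WT CCl4 libraries lay above all WT mineral oil libraries for 8 of the 10 members, where that held for 28.3% of genes. In ΔEGFR it held for 1 of 10, Pdia6, where it held for 20.6% of genes. On the scale of TMM-scaled counts, the WT groups did not overlap for 3 members, Sdf2l1 and Creld2 with CCl4 higher and Xbp1 with CCl4 lower, where 24.1% of genes separated in either direction. In ΔEGFR Xbp1 was the 1 member that separated on that scale, where 21.6% of genes did.

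The scale decided which members passed the test. The median of all genes was 0.44 (log2) higher with CCl4 in ΔEGFR, 0.40 in WT and 0.43 over both genotypes when counts were scaled to library totals alone, and 0.31, 0.28 and 0.30 on log2(TPM + 1). Scaled to library totals, 4 members were called higher in WT, namely Hspa5, Hsp90b1, Pdia6 and Sdf2l1, where 12.9% of genes were called higher. Over both genotypes Calr joined those 4, and 32% of genes were called higher. Limma on log2(TPM + 1) called Hspa5, Hsp90b1, Calr, Manf, Pdia6 and Sdf2l1 higher in WT, where 16% of genes were called higher, and 6 members over both genotypes, where 38.1% were. Relative to the median of all genes, the WT changes were alike with TMM factors and with library totals. Those scales share the counts and differ only in a factor per library, so that likeness is largely arithmetic. On log2(TPM + 1) the difference from the median was higher for every member but Creld2. For Hspa5 it was 0.94, 0.92 and 1.06 with TMM factors, library totals and log2(TPM + 1) in turn. For Sdf2l1 it was 1.26, 1.27 and 1.53, for Calr 0.33, 0.34 and 0.54, and for Creld2 1.54, 1.49 and 1.49.

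In ΔEGFR even the sign depended on the scale. With TMM factors 2 members were above 0 and 8 below, with library totals 7 above and 3 below, and on log2(TPM + 1) 8 above and 1 below. Hspa5 was at -0.14, 0.24 and 0.50 on those 3 scales in turn, none of them past the test. Xbp1 stayed below 0 on each of them in both genotypes, at -0.95, -0.47 and -0.37 in ΔEGFR and at -1.01, -0.57 and -0.46 in WT, although of these only the TMM-scaled value in WT was called. Relative to the median of all genes it was at -0.91 and -0.68 in ΔEGFR and at -0.97 and -0.74 in WT, with library totals and on log2(TPM + 1).

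**Figure D2:**
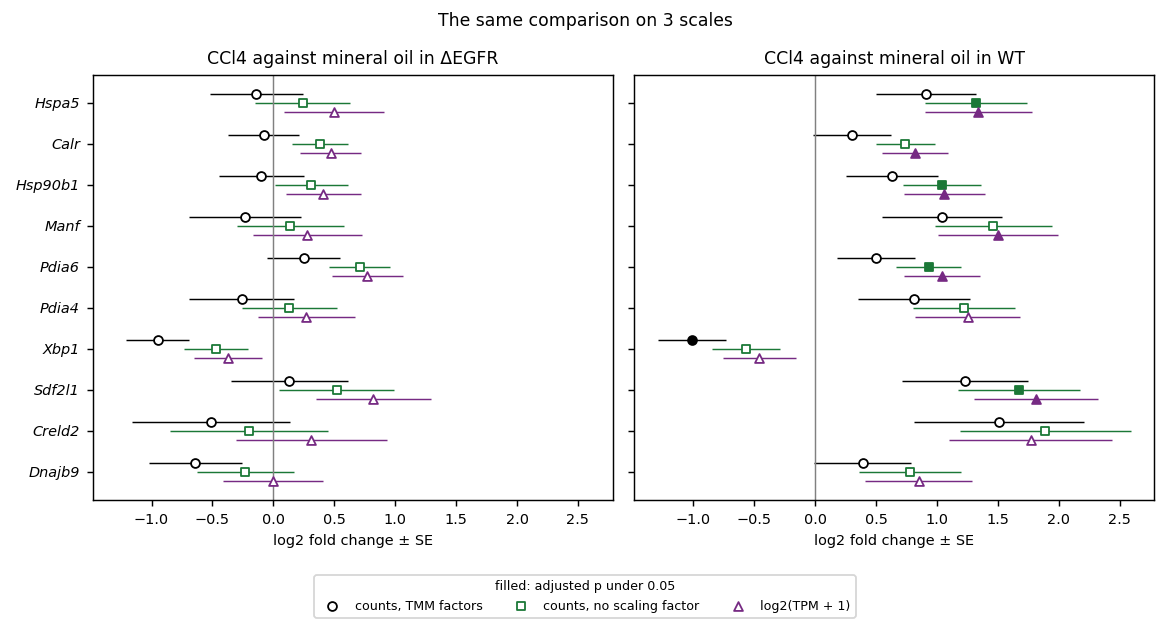
Log2 fold change of CCl4 over mineral oil with its SE (horizontal axes) in ΔEGFR (left) and WT (right) for the 10 genes, on 3 scales: TMM-scaled counts (circles), counts scaled to library totals (squares) and log2(TPM + 1) (triangles), with filled symbols for an adjusted p under 0.05. In WT all but Xbp1 lie right of 0, and Hspa5 is at 0.91, 1.32 and 1.34; Xbp1 lies left of 0 in both panels.

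A ratio within a library does not depend on how libraries are scaled. Hspa5 over Xbp1, in TPM, was 7.30, 5.36, 7.04 and 11.8 in ΔEGFR CCl4 libraries, against 3.20, 1.89, 10.8 and 4.42 in ΔEGFR mineral oil libraries. In WT the ratio was 11.1, 7.97 and 8.09 with CCl4, against 2.84, 2.18, 1.98 and 3.47 with mineral oil. The WT groups stood far apart, and in ΔEGFR replicate 3 of mineral oil lay among the CCl4 libraries. The pair was chosen after the values were seen, so these ratios carry no test.

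The genotypes were not told apart in these genes. Under CCl4, ΔEGFR over WT was called for 0 of 10 members, where 0% of all genes were called, with log2 fold changes of -0.74 ± 0.70 (Creld2) to 0.04 ± 0.32 (Pdia6). In mineral oil it was called for 0 of 10, where 0% of genes were called, with values of -0.37 ± 0.26 (Xbp1) to 1.28 ± 0.66 (Creld2). An unadjusted p under 0.05 in edgeR was reached by 411 genes under CCl4 and by 1197 in mineral oil, and DESeq2 called 2 and 0 genes. No member's groups separated in either treatment on TMM-scaled counts, where 5.06% of genes did under CCl4 and 2.73% in mineral oil. Creld2 in mineral oil was at 0.29 without replicate 3 of ΔEGFR.

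The difference between the genotypes in their response to CCl4 was tested as an interaction. It was called for 0 of 10 members, where 0% of genes were called. Of all genes, 568 had an unadjusted p under 0.05 in edgeR, and DESeq2 called 2. The interaction was below 0 for 9 of the 10 members, with a median of -1.04 (log2), beside 0.03 for all genes. Creld2 had -2.02 ± 0.96 (edgeR unadjusted p = 0.0549, adjusted p = 1), Manf -1.27 ± 0.67, Sdf2l1 -1.10 ± 0.71, Pdia4 -1.07 ± 0.63, Hspa5 -1.05 ± 0.56 and Dnajb9 -1.03 ± 0.55. Smaller values were those of Hsp90b1 (-0.73 ± 0.52), Calr (-0.38 ± 0.43) and Pdia6 (-0.24 ± 0.43), and Xbp1 had 0.06 ± 0.38. Without the 2 outlying libraries, the median of the members was -0.15, that of Creld2 -0.14 and that of Hspa5 -0.18.

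The chaperone transcripts followed one another from library to library. Over the 15 libraries, Pearson's r of log2 CPM was 0.19 to 0.96, with a median of 0.81, over the 36 pairs of the 9 genes other than Xbp1. Taken as deviations from the group means, so that treatment and genotype no longer count, it was 0.25 to 0.96, with a median of 0.82. Creld2 and Manf had the highest r (0.96), and that of Hspa5 and Creld2 was 0.95. Calr followed Pdia6 (r = 0.87) and Pdia4 (r = 0.88) more closely than it followed Hspa5 (r = 0.54). Dnajb9 followed Hspa5 (r = 0.77) but hardly Pdia6 (r = 0.19). The 9 pairs with Xbp1 had r of -0.40 to 0.07, with a median of -0.16. As deviations from the group means, those pairs had -0.31 to 0.35, with a median of 0.09. All of these values share the libraries, their depth and their scaling.

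**Figure D3:**
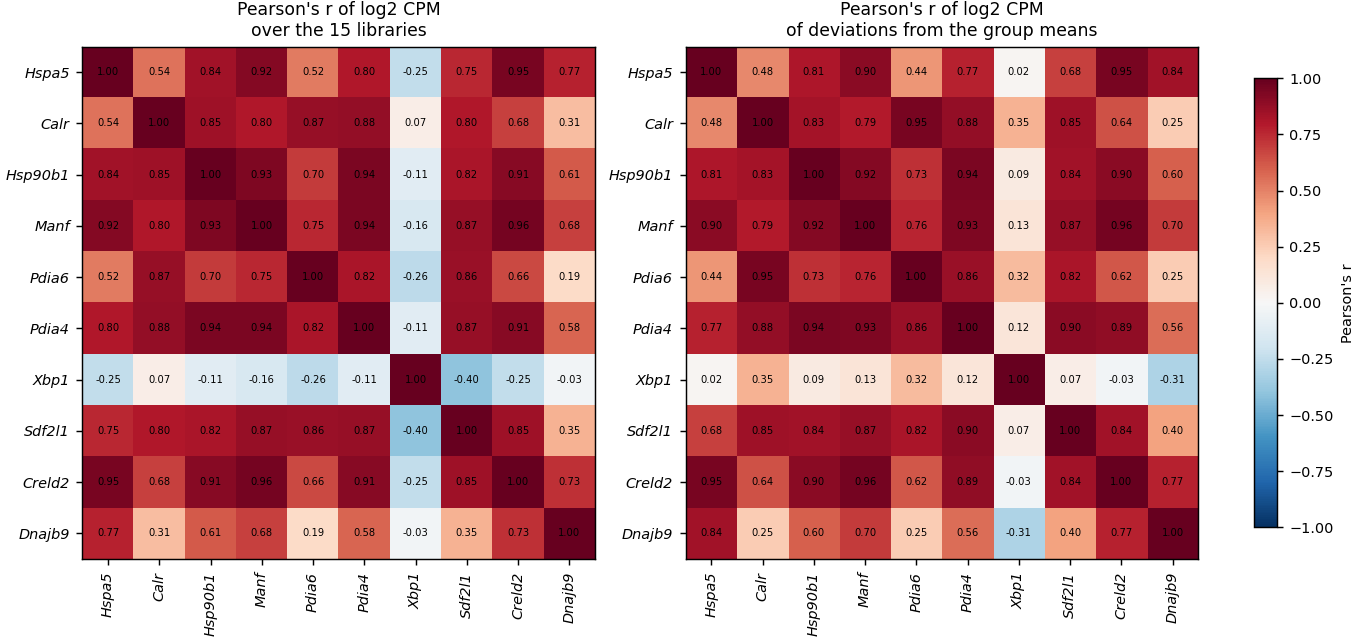
Pearson's r of log2 CPM between the 10 genes (colour, printed in each cell) over the 15 libraries on the left and of deviations from the group means on the right. The 9 genes other than Xbp1 form a positive block with a median r of 0.81 (left) and 0.82 (right), and the row of Xbp1 is pale in both.

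Beyond the 10, the transcripts most like Hspa5 over the 15 libraries, among 10046 genes of a mean log2 CPM of at least 2, were Cdk2ap2 (r = 0.943), Hyou1 (0.918), Morf4l2 (0.903), Sf3a3 (0.885), Farsa (0.878) and Zfp330 (0.877). Hyou1 is the ER's large Hsp70 relative and the nucleotide exchange factor of Hspa5, Sf3a3 a splicing factor, and Farsa a subunit of phenylalanyl-tRNA synthetase. The least like were Pnpla2, the triglyceride lipase of lipid droplets (-0.903), Map1lc3b, which marks autophagosomes (-0.805), and Nr1d2, a repressor of the circadian clock (-0.805). These likenesses are descriptions over libraries that differ in treatment.

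Genes that work beside the chaperones were compared over the mean of both genotypes, in lists that were drawn up with earlier results of these data known. Their counts of called genes are to be read beside the 27.1% of all genes called in that comparison. Of 20 other folding factors, 3 rose and 2 fell, a share near that of all genes, with a median log2 fold change of 0.15. Erp29, which helps secretory proteins leave the ER, rose by 0.85 ± 0.14 (edgeR adjusted p = 0.00136), Dnajc10, a reductase with a J domain, by 0.73 ± 0.17, and Calu, a calcium-binding protein, by 0.46 ± 0.13. Pdia5 had -0.81 ± 0.21 and Sil1, an exchange factor of Hspa5, -0.49 ± 0.16. Hyou1 (0.32 ± 0.34), Pdia3 (0.18 ± 0.17) and Canx, the membrane partner of Calr (0.06 ± 0.11), were not called.

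Erp29 is an example of a called change with clearly separate groups. It measured 242, 182, 140 and 129 TPM in ΔEGFR CCl4 libraries, against 64.1, 74.0, 102 and 46.2 TPM in ΔEGFR mineral oil libraries. WT CCl4 libraries had 147, 158 and 194 TPM, against 49.0, 57.5, 57.0 and 67.5 TPM in WT mineral oil. All CCl4 libraries were above all mineral oil libraries of both genotypes, and replicate 3 of ΔEGFR mineral oil was again the highest of its group. Not every called gene separated so. Dnajc10 was at 42.1 CPM in replicate 2 of ΔEGFR CCl4, below the 52.3 CPM of replicate 1 of ΔEGFR mineral oil.

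Of 20 genes of translocation and N-glycosylation, 5 rose and 1 fell, again near the 27.1% of all genes, with a median of 0.32. Sec61g, a subunit of the channel into the ER, rose by 0.58 ± 0.14 (edgeR adjusted p = 0.00867) and Sec11c, a signal peptidase, by 0.44 ± 0.10 (adjusted p = 0.0065), with Sec61b, Ssr1 and Ssr2 at 0.51 to 0.56. Sec62 was at -0.40 ± 0.12. Of 14 genes of ER-associated degradation, edgeR called 0, with 3 at an unadjusted p under 0.05 and a median of -0.14. Derl2 had -0.45 ± 0.16 (edgeR adjusted p = 0.0532), Erlec1, a lectin of the ER, -0.30 ± 0.11 (adjusted p = 0.0617) and Derl3, a target of the Ern1 and Xbp1 arm, 0.93 ± 0.46 (adjusted p = 0.151).

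Among 12 genes of the KDEL receptors, which return escaped chaperones to the ER, and of COPII transport, 1 rose and 0 fell, with a median of 0.08. Kdelr3 was at 4.29, 3.47, 1.53 and 0.55 TPM in ΔEGFR CCl4, against 0.12, 0.15, 0.35 and 0.01 TPM in ΔEGFR mineral oil. In WT it was at 2.26, 1.33 and 4.17 TPM with CCl4, against 0.06, 0.06, 0 and 0.16 TPM with mineral oil. No groups overlapped, at levels close to 0 in mineral oil, so its fitted log2 fold change of 4.04 ± 0.65 (edgeR adjusted p = 0.00111) leans on the prior count. Sar1b had -0.41 ± 0.14 (adjusted p = 0.0521).

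Of 12 sensors and factors of the response, 2 rose and 3 fell, where 27.1% of all genes were called, with a median of -0.09. Ern1, the kinase that splices Xbp1, was at 15.3, 22.4, 17.1 and 14.4 TPM in ΔEGFR CCl4, against 12.2, 26.7, 25.6 and 26.9 TPM in ΔEGFR mineral oil, and at 24.7, 14.6 and 28.3 TPM in WT CCl4, against 25.4, 19.5, 33.1 and 30.3 TPM in WT mineral oil. On TPM the groups overlapped in both genotypes. On TMM-scaled counts it fell in each, by 0.92 ± 0.21 in ΔEGFR (edgeR adjusted p = 0.0367) and by 0.77 ± 0.23 in WT (adjusted p = 0.0448). Without both outlying libraries Ern1 had -0.86 in WT (adjusted p = 0.0688). Creb3l3 and Tmbim6 fell by 0.74 ± 0.18 and 0.62 ± 0.16 over both genotypes. Atf6 (-0.01 ± 0.11), Eif2ak3 (-0.17 ± 0.21) and Atf4 (0.06 ± 0.19) were not called, and Atf6b rose by 0.47 ± 0.14.

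Ddit3 (CHOP), the factor of prolonged stress, rose. Libraries held 87.0, 64.5, 38.2 and 38.1 TPM in ΔEGFR CCl4, against 6.61, 14.4, 29.1 and 11.1 TPM in ΔEGFR mineral oil. In WT they held 58.6, 31.4 and 99.0 TPM with CCl4, against 16.3, 4.17, 5.73 and 11.4 TPM with mineral oil. The groups were separate in both genotypes, and the log2 fold change was 1.43 ± 0.42 in ΔEGFR (edgeR adjusted p = 0.0707) and 2.23 ± 0.45 in WT (adjusted p = 0.0105). The symbol belongs to a pair of gene IDs, of which the one with more reads was used. Among 11 targets of ATF4 and CHOP, 4 rose and 1 fell, where 27.1% of all genes were called, with a median of 0.98. Nupr1 (4.61 ± 0.80), Psat1 of serine synthesis (3.07 ± 0.52), Vldlr (2.98 ± 0.53) and Fgf21 (2.34 ± 0.80) rose and Chac1 was at -1.30 ± 0.36. Ppp1r15a, which ends the block of translation, had 0.58 ± 0.33 (edgeR adjusted p = 0.209).

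The cytosolic heat shock genes did not pass the test, with 0 of 12 called and a median of -0.31. Hspa8 had -0.06 ± 0.24, Hspd1 -0.35 ± 0.14 and Hspb1 1.63 ± 0.58 (edgeR adjusted p = 0.0533). Hspa1b was at 124, 83.3, 22.1 and 42.6 TPM in ΔEGFR CCl4, against 18.4, 19, 142 and 80.9 TPM in ΔEGFR mineral oil, and at 58.0, 28.0 and 51.9 TPM in WT CCl4, against 487, 12.4, 18.9 and 28.9 TPM in WT mineral oil. Its near-identical copy Hspa1a was likewise highest, at 135 TPM, in replicate 1 of WT mineral oil, the library in which 7 of the ER genes were lowest. Reads of these copies may have been shared out between them. In replicate 3 of ΔEGFR mineral oil Hspa1b was the highest of its group, as were Hspa5 and Creld2.

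The scale moved these lists as it moved the members. With library totals, where 32% of all genes were called higher, the genes called higher were 13 of 20 other folding factors, 18 of 20 of translocation and N-glycosylation, 5 of 14 of degradation, 6 of 12 of KDEL receptors and COPII transport, 4 of 12 sensors and factors, 8 of 11 targets of ATF4 and CHOP and 2 of 12 cytosolic heat shock genes, and 0 genes of these lists were called lower. The medians of the degradation, sensor and heat shock lists, below 0 with TMM factors, were 0.27, 0.32 and 0.12 with library totals and 0.38, 0.41 and 0.44 on log2(TPM + 1), beside the shifts of 0.43 and 0.30 in the median of all genes. The genes named above as having risen over both genotypes were called higher on both of those scales as well. Of those called lower with TMM factors, Pdia5, Ern1, Creb3l3, Tmbim6 and Chac1 stayed below 0 on both but were not called. Sil1 was at -0.03 and 0.06 and Sec62 at 0.07 and 0.14 with library totals and on log2(TPM + 1). Xbp1 was at -0.52 with library totals (edgeR adjusted p = 0.046) and at -0.42 on log2(TPM + 1) (limma adjusted p = 0.11). Without both outlying libraries and with TMM factors, 2 of the genes called over both genotypes lost the call, Ssr2 (0.52, adjusted p = 0.0567) and Fgf21 (2.19, adjusted p = 0.1).

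**Figure D4:**
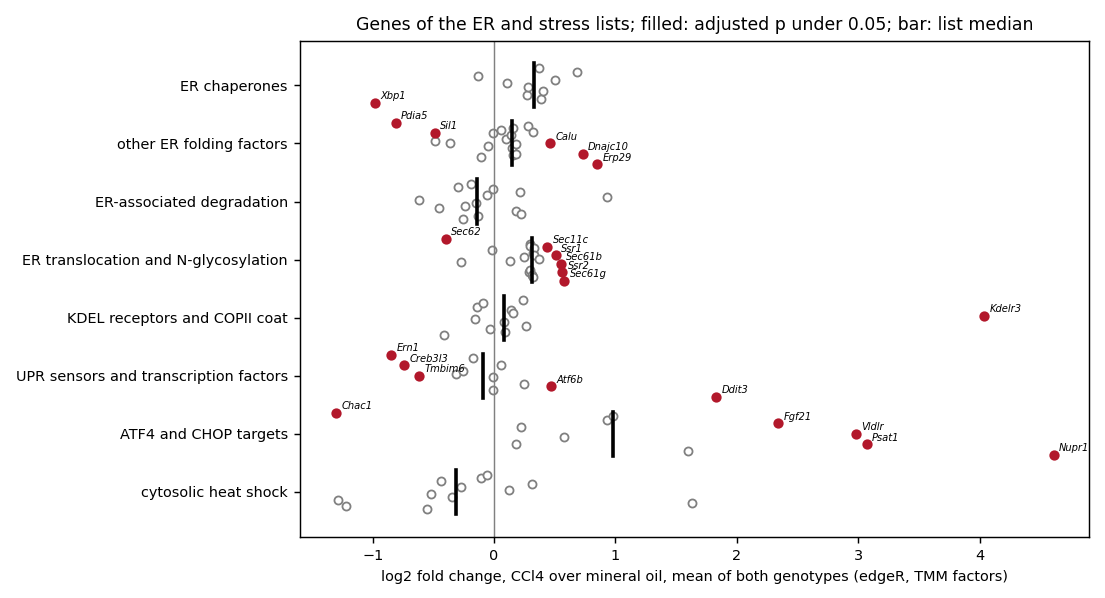
Log2 fold change of CCl4 over mineral oil, mean of both genotypes (horizontal axis), of each gene in 8 lists (rows); filled dots passed an adjusted p of 0.05 in edgeR and are named, and the black bar is the list's median. The ER chaperones have a median of 0.32 with Xbp1 at -0.98 as their called gene, and the list of ATF4 and CHOP targets has a median of 0.98.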

How the data were processed

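Libraries were made from RNA extracted with RNA STAT-60 and a KAPA stranded mRNA kit, per the labels' protocols. The authors deposited 1 table per library with expected counts and TPM per gene; per the submitters' processing notes these came from STAR 2.7.8a, RSEM 1.3.0 and build GRCm39. The annotation release and the strand setting are not given in the sources used here. Gene names were joined by Ensembl ID from a table of another mouse build and named 52029 of 56953 IDs (91.4%). Expected counts were rounded, filtered (edgeR filterByExpr, minimum count 10, minimum total 15, leaving 17975 genes), scaled by TMM factors and fitted with edgeR 4.0.16 (robust quasi-likelihood, 1 mean per group, all 15 libraries, R 4.3.3). A call is a Benjamini-Hochberg adjusted p under 0.05 over all genes tested. CPM values carry the TMM factors, and log2 CPM used a prior count of 2. On the deposited TPM, limma 3.58.1 was run on log2(TPM + 1). RSEM divides reads that match several genes between them.

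The 10 members, the lists and the tests were chosen with earlier results of these data known. Named genes were the 10 members, the 2 genes of lowest p in each other ER or stress list over both genotypes, and 13 genes of the response fixed by name; further called genes of the lists were named after their values were seen. The other-cell score is the mean log2 CPM of the non-hepatocyte markers. Alternatives were DESeq2 1.42.0, other scaling factors, other low-count filters, a fit of only the groups compared, covariates for the other-cell score and for depth (over or under 80 M reads), a TPM pseudocount of 0.1, and leaving out each library. One gene of the lists is not reported here. The scripts were tested on simulated data.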

Additional observations from a re-analysis of the deposited data

Results flagged for a closer look

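Within groups of 4 libraries, 6 of 30 combinations of gene and group held a library far outside the rest by Dixon's test. For a single gene, chance flags about 1 in 20 groups. The combinations share libraries and most of the genes followed one another, so their count cannot be set against that rate. In ΔEGFR mineral oil, replicate 3 was flagged for 5 genes. It held 960 TPM of Calr against 685 to 714 TPM in the other 3 libraries, 353 TPM of Pdia4 against 128 to 160 TPM, 214 TPM of Sdf2l1 against 49.5 to 66.4 TPM, 320 TPM of Creld2 against 34.5 to 63.9 TPM, and 638 TPM of Manf against 169 to 235 TPM. In WT mineral oil, replicate 3 held 372 TPM of Xbp1, against 189 to 208 TPM in the other 3. Without that library Xbp1 in WT had a log2 fold change of -0.70 (edgeR adjusted p = 0.0905). The group of 3 WT CCl4 libraries, in which replicate 1 was the highest of all 15 libraries for 7 of the 10 genes, was not tested in this way.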

How the results depend on the processing

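The alternatives changed which of the 10 members were called, and no called value changed sign. In ΔEGFR (0 called), DESeq2, a fit of only the groups compared and a covariate for depth each called 1, Xbp1 (-0.90, -0.94 and -0.96), and leaving out 1 library gave 0 to 1. In WT (1 called), library totals without a scaling factor gave 4, limma on log2(TPM + 1) and on log2(TPM + 0.1) gave 6 each, and 0 were called with no low-count filter, with only the groups compared and with the other-cell covariate, while leaving out 1 library gave 0 to 1. Over both genotypes (1 called), library totals gave 6, limma gave 6 with a pseudocount of 1 and 7 with 0.1, and the other-cell covariate gave 0. The calls of Xbp1 lost in WT were at adjusted p of 0.169 with library totals, 0.072 with no low-count filter, 0.137 with only the groups compared, 0.281 and 0.272 with limma and 0.164 with the other-cell covariate; without replicate 2 or 3 of WT mineral oil, replicate 2 or 3 of WT CCl4, or replicate 4 of ΔEGFR CCl4 they ranged from 0.056 to 0.161. Apart from the library totals and the TPM scale, the cause was not tested. A fit of only the groups compared gives no other value over both genotypes and for the interaction, which use all groups. Groups of 3 and 4 libraries with a biological coefficient of variation of 50.9% limit what can be called. No paired analysis was possible because the labels carry no replicate numbers, and those used here follow the order of the records.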
